A study of Chlamydomonas reinhardtii with 9 samples.

Results

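In chromatin of the unicellular green alga Chlamydomonas reinhardtii, 3855 genomic regions carried peaks of an HA-tagged SKIP protein in at least 2 of 3 libraries and no peak of HA-tagged PAF1 in any of 3 libraries. The data are chromatin immunoprecipitations sequenced after pull-down with an antibody against the HA tag (ChIP-seq), deposited as 1 list of peak intervals per tagged library. Peaks of the 6 lists were pooled, and those overlapping by at least 1 bp were merged into 36946 regions on the 17 chromosomes, or 37052 with the contigs and organelle genomes. The 3855 regions were therefore chosen by the peak calls of all 6 libraries, and they are called SKIP-HA-only regions below. They made up 10.4% of the merged chromosome regions. Among the 16416 chromosome regions with peaks of at least 2 SKIP-HA libraries they were 23.5% (95% Wilson interval 22.8 to 24.1). The other 12561 of these also held a PAF1-HA peak and are called shared regions. The mirrored choice, PAF1-HA peaks in at least 2 libraries and no SKIP-HA peak, gave 1379 regions, 3.73% of the merged regions and 10.7% of the 12841 PAF1-HA regions. None of these counts is a finding beyond the choice itself.

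All cells were of strain CC5325. The tagged groups have 3 libraries each, labelled with the genotype paf1 or skip, and 3 wild-type libraries complete the series. The labels do not say whether the tagged lines also carry a mutation in the tagged gene, which promoter drives the tagged protein, how many clones were used, or whether replicates came from separate cultures. The spread between libraries may thus be technical, and no p-value is given below. No wild-type peak list was among the data used here, so no value below has a background from untagged cells beside it. PAF1-HA lists held 16329 to 17645 peaks and SKIP-HA lists 19709 to 24680. Nearly every peak was 400 bp wide, without a score. The number of reads behind the lists is unknown, and a region without a PAF1-HA peak is a region without a call, which is not the same as a region without the protein. In both tagged groups the labels describe replicate 3 with different fields, which may mark a separate batch.

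PAF1 is a subunit of the PAF1 complex, which travels with RNA polymerase II along transcribed genes and is needed for several histone modifications that accompany elongation. SKIP belongs to the SNW-domain proteins, known from yeast, animals and plants as components of the spliceosome that also act in transcription. In Arabidopsis, SKIP has been reported to associate with the PAF1 complex at flowering genes. The series title joins both proteins with CDKB, a plant-type kinase that drives entry into mitosis. In Chlamydomonas, cells grow through the day and then divide several times in quick succession.

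How well the choice repeats was asked by holding out replicates. One replicate number was set aside in both groups. Candidates were then regions of the other 4 libraries with peaks of both SKIP-HA libraries and none of both PAF1-HA libraries. Comparison regions had peaks of both SKIP-HA libraries and of at least 1 PAF1-HA library. The held-out libraries took no part in choosing these regions.

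Candidates were met more often by the held-out SKIP-HA library than by the held-out PAF1-HA library in each of the 3 rounds. With replicate 1 held out, 47.4% of 3051 candidates had a peak of SKIP-HA replicate 1 and 27.2% had a peak of PAF1-HA replicate 1. With replicate 2 held out, the values were 54.3% and 30.2% of 2643 candidates. With replicate 3 held out, 1451 of 2556 candidates (56.8%) were met by SKIP-HA and 766 by PAF1-HA (95% Wilson interval 28.2% to 31.8%). The means were 52.8% ± 4.86 for SKIP-HA and 29.1% ± 1.66 for PAF1-HA (SD, n = 3), and the groups did not overlap. Comparison regions were met by SKIP-HA in 74.3% ± 2.53 and by PAF1-HA in 68.5% ± 1.02 (SD, n = 3). The groups did not overlap there either, with 71.7% to 76.7% for SKIP-HA and 67.4% to 69.4% for PAF1-HA. Absence of overlap is thus not particular to the candidates. Relative to comparison regions, candidates were met at a ratio of 0.661, 0.729 and 0.740 by SKIP-HA and of 0.404, 0.440 and 0.432 by PAF1-HA. The mean ratios differed by 0.285. Candidates lacked PAF1-HA calls and comparison regions had them, so any repeatability of PAF1-HA calls between libraries gives this direction. The difference is therefore given as a description only, without a p-value. The 3 sets of candidates share regions, so the 6 ratios are not fully independent.

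The held-out values also show how far the absence of a PAF1-HA call depends on the number of lists. Between 27.2% and 30.2% of regions that lacked a PAF1-HA peak in 2 libraries had one in the next. On the merged regions of all 6 lists, 16416 regions had peaks of at least 2 SKIP-HA libraries. Between 7737 and 7898 of them lacked a peak in a given single PAF1-HA library, 5036 to 5175 lacked it in a given pair, and 3855 lacked it in all 3. No level at which the number would stop falling was reached with 3 lists. With the mirrored choice the order of the ratios turned, to 0.712 ± 0.0332 for PAF1-HA and 0.573 ± 0.0368 for SKIP-HA (SD, n = 3). There, candidates lacked SKIP-HA calls and comparison regions had them, so the choice gives this direction too. Candidates with peaks of both PAF1-HA libraries and neither SKIP-HA library were met by the held-out PAF1-HA library in 51.1% ± 2.81 and by the held-out SKIP-HA library in 42.6% ± 4.26 (SD, n = 3). These values were not tested against those of the SKIP-HA candidates.

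**Figure D1:**
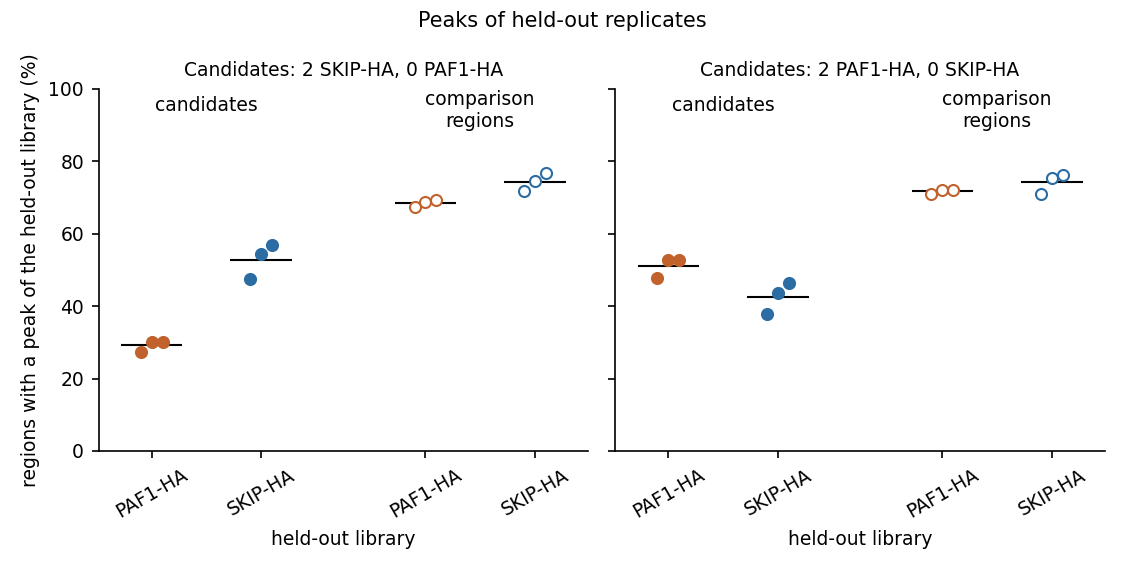
Percentage of regions with a peak of a held-out library (points: 3 held-out replicates per group, in the order 1, 2, 3; lines: means), for candidates (filled) and comparison regions (open), with SKIP-HA candidates on the left and PAF1-HA candidates on the right. At SKIP-HA candidates the SKIP-HA points lie between 47.4% and 56.8% and the PAF1-HA points between 27.2% and 30.2%.

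Among the SKIP-HA-only regions, 921 had peaks of all 3 SKIP-HA libraries, which is 2.49% of the merged regions. Regions with a pair of libraries numbered 818 for replicates 1 and 2, 880 for replicates 1 and 3, and 1236 for replicates 2 and 3. Without SKIP-HA replicate 1, 2 or 3, and with both remaining libraries required, 2221, 1845 and 1790 regions met the rule in place of 3855. The most frequent pair joins the longest lists. SKIP-HA replicate 1, with 19709 peaks, was present in 67.9% of the regions, replicate 2, with 22305, in 77.2%, and replicate 3, with 24680, in 78.8%. All 3 libraries were present in 23.9% of SKIP-HA-only regions (95% Wilson interval 22.6 to 25.3) and in 49.2% of shared regions (48.3 to 50.1). Put the other way, 31.5% of regions with 2 SKIP-HA libraries lacked any PAF1-HA peak, against 13.0% of regions with 3. Regions with all 3 SKIP-HA libraries most often had all 3 PAF1-HA libraries as well (42.6%). The member rule uses the same calls, so these shares describe the choice and are not a test. In shared regions, a PAF1-HA peak can also join SKIP-HA peaks that do not overlap each other. Such joining can raise the number of SKIP-HA libraries in a region, and how far it bears on these shares was not tested.

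SKIP-HA-only regions were narrow. Their width ranged from 400 to 2057 bp with a median of 558 bp, against 820 bp for shared regions and 543 bp for PAF1-HA-only regions. More merged peaks make a region wider, and 2543 SKIP-HA-only regions held 2 peaks, 963 held 3 and the others 4 to 8. The regions were mostly stacks of peaks and less often chains. The best overlap between peaks of different SKIP-HA libraries had a median of 320 bp of the 400 bp of a peak, against 348 bp in shared regions. It was 370 bp in SKIP-HA-only regions with all 3 libraries and 291 bp in those with 2. Shared regions more often had all 3 (49.2% against 23.9%), and their overlap was not split by library number. In SKIP-HA-only regions the best overlap was at least 200 bp in 3052 (79.2%) and under 50 bp in 150 (3.89%). It was under 50 bp in 6.04% of shared regions, where a PAF1-HA peak can also join SKIP-HA peaks that share no base. These 2 shares are therefore not on an equal footing. Of the 921 regions with all 3 libraries, 766 (83.2%) had a base covered by all 3, close to the 81.0% of shared regions with 3 SKIP-HA libraries.

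Peak centres agreed less tightly than in shared regions. In 615 SKIP-HA-only regions with exactly 1 peak of each SKIP-HA library, the outermost centres lay a median of 185 bp apart, with 80.0 to 317 bp as the middle range between quartiles. In 3191 shared regions of that kind the median was 107 bp (34.0 to 245 bp). The spread of PAF1-HA centres in 218 PAF1-HA-only regions had a median of 156 bp. The lists carry no peak strength to set beside this difference.

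The 5 SKIP-HA-only regions with the closest centres lay at very different distances from PAF1-HA peaks. On chromosome 3 at 9252867 to 9253267, the peaks of replicates 1, 2 and 3 started at 9252868, 9252867 and 9252868, and a PAF1-HA peak lay 69 bp away. On chromosome 5 at 1815325 to 1815727, they started at 1815327, 1815325 and 1815328, with the nearest PAF1-HA peak 2930 bp away. On chromosome 12 at 2015164 to 2015566, they started at 2015164, 2015167 and 2015167, with 5105 bp to PAF1-HA. These starts differ by at most 3 bp in each region. The chromosome 3 region ends at the last base that any peak reached on that chromosome. On chromosome 2 at 1650321 to 1650725, centres lay within 5 bp and a PAF1-HA peak 1974 bp away. The chromosome 8 region at 322952 to 323356 also had centres within 5 bp, with PAF1-HA at 192 bp. All positions are 1-based in the build of the files, which is not given in the sources used here. For that reason no gene, exon, promoter or sequence is placed at any region.

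The widest SKIP-HA-only regions were chains. The widest, 2057 bp on chromosome 4 at 3341327 to 3343383, had peaks of SKIP-HA replicates 1 and 3 only. Replicate 1 peaks started at 3341327, 3342058 and 3342718 and replicate 3 peaks at 3341695, 3342333 and 3342984, so the libraries alternated along the region. The next widest, 1821 bp on chromosome 1 at 1518357 to 1520177, had replicates 2 and 3. The other 3 had all 3 replicates: 1659 bp on chromosome 12 (from 5479749), 1621 bp on chromosome 10 (from 2670500) and 1620 bp on chromosome 8 (from 1475323). The chromosome 8 region held 8 peaks, the most of the 5, and a PAF1-HA peak lay 120 bp from its edge.

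Most SKIP-HA-only regions had a PAF1-HA peak nearby. The number of bases between a region and the nearest peak of any PAF1-HA library had a median of 734 bp (95% interval of the median 693 to 797), with quartiles at 262 and 2533 bp. A PAF1-HA peak lay within 200 bp of 20.3% of regions, within 1 kb of 56.8% and within 5 kb of 88.1%. Within 1 kb, 14.6% of regions had PAF1-HA peaks on both sides, 42.2% on one side and 43.2% on neither. Against single lists, the median distance was 2090 bp to PAF1-HA replicate 1, 1827 bp to replicate 2 and 1893 bp to replicate 3. The 3 lists gave similar distances, and the pooled value is shorter because it takes the nearest of 3.

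Regions with all 3 SKIP-HA libraries lay farther from PAF1-HA peaks than those with 2. Their median distance was 1052 bp (95% interval 898 to 1256), against 677 bp (637 to 724) for regions with 2 libraries. The share of regions with all 3 libraries was 20.1% where PAF1-HA lay within 200 bp, 21.1% between 200 bp and 1 kb and 26.2% between 1 and 5 kb. It was 31.9% between 5 and 10 kb and 35.3% beyond 10 kb (95% Wilson interval 27.3 to 44.2, 119 regions). These intervals cover counting error only, and neighbouring regions are not independent. Regions with all 3 libraries were also wider, with a median of 679 bp against 530 bp for those with 2. The rule removes regions that overlap a PAF1-HA peak, and a wider region meets a nearby peak more easily. How far width bears on these distances was not tested. From shared regions, the next PAF1-HA peak outside the region was a median of 487 bp away. It lay within 200 bp of 28.5% of them, within 1 kb of 63.4% and within 5 kb of 88.5%. At 5 kb this share was close to the 88.1% of SKIP-HA-only regions, so the difference lay at short distances. PAF1-HA-only regions lay a median of 389 bp from the nearest SKIP-HA peak. The SKIP-HA lists cover more of the chromosomes (16.4% by any of the 3 lists, against 12.5% for PAF1-HA), so distances to the nearest peak of either protein are not on an equal footing.

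**Figure D2:**
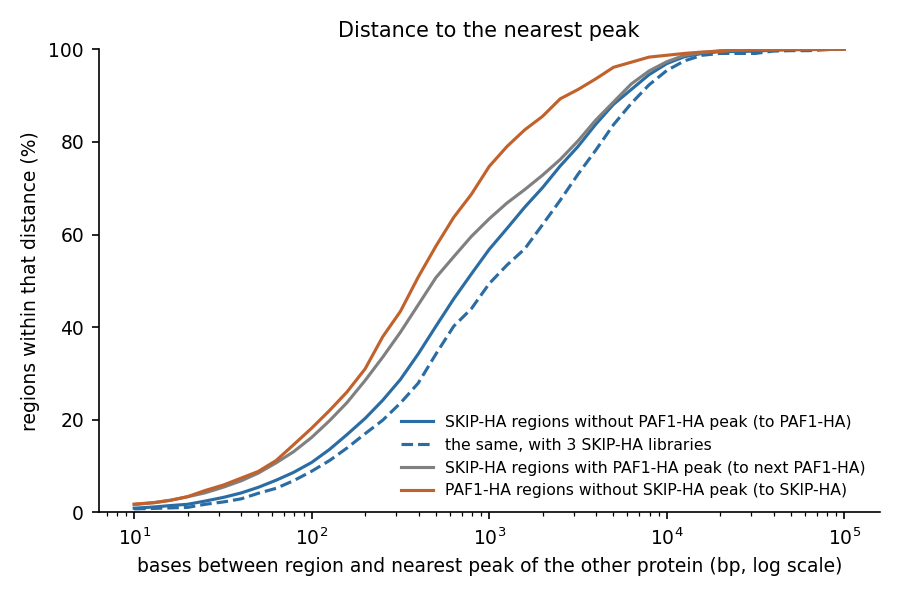
Percentage of regions (vertical axis) within a given number of bases of the nearest peak (horizontal axis, bp, log scale), for SKIP-HA-only regions, the 921 of them with all 3 SKIP-HA libraries, shared regions and PAF1-HA-only regions. The curve of SKIP-HA-only regions passes 56.8% at 1 kb, and that of PAF1-HA-only regions 74.7%.

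At the edge of the rule the choice turned on single bases. Of the SKIP-HA-only regions, 6 touched a PAF1-HA peak without sharing a base, and 209 lay within 50 bp of one. Those that touched included regions of chromosome 2 starting at 3447024 and 7086641, and 1 of chromosome 5 starting at 1489997. Just outside the rule, PAF1-HA and SKIP-HA peaks shared a single base in the chromosome 1 regions that start at 5441985 and 5751468 and in the chromosome 10 region that starts at 1348663. In 212 of the 12561 shared regions the best overlap of a PAF1-HA with a SKIP-HA peak was under 100 bp, and 3774 shared regions had a peak of 1 PAF1-HA library only. If PAF1-HA peaks within 200 bp also counted as present, 3074 regions were left, and 1664 if those within 1 kb did.

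Of the merged regions that held the PAF1-HA peak nearest to a SKIP-HA-only region, 48.8% had 1 PAF1-HA library, 29.5% had 2 and 21.7% had 3. Over all regions with PAF1-HA peaks the shares were 46.3%, 30.3% and 23.4%. Of the nearest PAF1-HA regions 19.7% held no SKIP-HA peak, and of all PAF1-HA regions 22.1%. No test was made of these shares.

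Flanks were described library by library, as the percentage of regions with a further peak whose near edge lay within a given distance. Within 1 kb of SKIP-HA-only regions, PAF1-HA peaks were found in 34.2%, 35.5% and 35.7% (replicates 1, 2 and 3) and SKIP-HA peaks in 44.8%, 50.5% and 54.3%. Within 1 kb of shared regions the PAF1-HA values were 43.6%, 44.4% and 45.2%, and the SKIP-HA values 48.4%, 52.7% and 55.6%. The PAF1-HA values were lower beside SKIP-HA-only than beside shared regions by a mean of 9.25 ± 0.332 percentage points, in 3 of 3 libraries. The SKIP-HA values were lower by 2.41 ± 1.13 points, also in 3 of 3 (SD, n = 3). Between 1 and 5 kb the PAF1-HA difference was 2.19 ± 0.618 points and the SKIP-HA difference 0.505 ± 0.686 points, the latter smaller than its spread and with replicate 3 the other way. Between 5 and 10 kb the differences were 1.06 ± 0.373 and 0.486 ± 0.609 points. These windows differ in length, so the differences cannot be compared between them. The rule uses the same contrast of PAF1-HA with SKIP-HA calls, so no test is given.

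**Figure D3:**
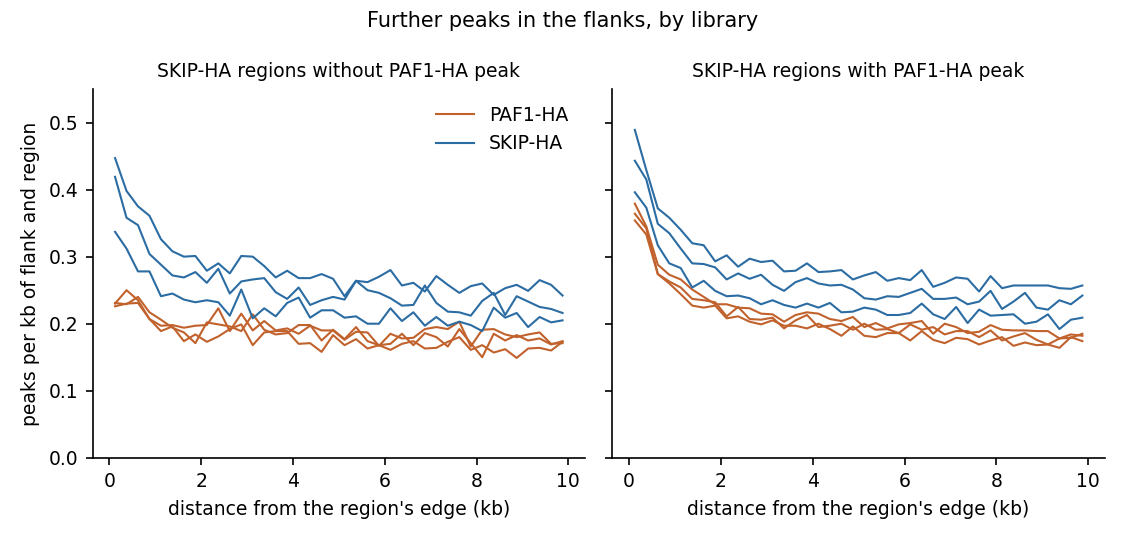
Further peaks per kb of flank and region (vertical axis) by distance from the region's edge (horizontal axis, kb, both sides together, bins of 250 bp), 1 line per library. Beside SKIP-HA-only regions (left) the PAF1-HA lines start between 0.226 and 0.231 peaks per kb, and beside shared regions (right) between 0.354 and 0.379.

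SKIP-HA-only regions were mostly single. When regions at most 1 kb apart were joined, 645 of the 3855 (16.7%, 95% Wilson interval 15.6 to 17.9) fell into 301 clusters, of which 268 held 2 regions, 25 held 3, 7 held 4 and 1 held 6. The median cluster was 1659 bp long. The share in clusters was 10.1%, 9.21% and 7.49% without SKIP-HA replicate 1, 2 and 3. Among shared regions 44.4% were in such clusters, and among the 1379 PAF1-HA-only regions 17.5%. Shared regions number 12561, and a larger set has closer neighbours by number alone. These distances, too, depend on how many regions or peaks there are to meet. The nearest other SKIP-HA-only region lay a median of 7241 bp away, while the nearest SKIP-HA peak of any kind outside the region lay 374 bp away, close to the 352 bp found for shared regions. Of the 344 pairs of neighbouring SKIP-HA-only regions within 1 kb, 19 (5.52%) had a PAF1-HA peak between them. The regions overlap no PAF1-HA peak, so a peak of 400 bp fits only in a gap at least that long. With gaps of at most 500 bp, 453 regions were already in clusters, so many pairs had little or no room for one. The low share is thus partly set by the rule and the peak width.

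Runs were then formed of SKIP-HA-only regions with no PAF1-HA peak between them at any distance. Single regions made up 67.0% of the 3855, and 1274 regions (33.0%) were in 564 runs of 2 or more. Runs of 3 numbered 86 and runs of 4 numbered 23. There were 2 runs of 5 and 2 of 6. The regions in the longest runs were chosen after their positions were known, and they are described without a test.

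The run with most regions and the longest of that number lay on chromosome 16 at 5074193 to 5087058. It held 6 SKIP-HA-only regions over 12866 bp. SKIP-HA replicates 1, 2 and 3 had 5, 6 and 6 peaks there, and the PAF1-HA libraries had 0. The PAF1-HA peaks that bound it lay 1095 and 1894 bp beyond its ends. Of its regions, 2 had all 3 SKIP-HA libraries, at 5077435 to 5078099 and at 5086472 to 5087058. The adjoining 100 kb window, 5100001 to 5200000, held more SKIP-HA-only regions than any other.

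A run of 6 regions on chromosome 9 was shorter and denser. It spanned 6204046 to 6209782, or 5737 bp, with 4, 5 and 6 SKIP-HA peaks in replicates 1, 2 and 3 and 0 PAF1-HA peaks. Only the region at 6206621 to 6207798 had all 3 SKIP-HA libraries. Its upper end lay 32 bp from a PAF1-HA peak and its lower end 913 bp from one.

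The 5 regions of a run on chromosome 4, at 1750430 to 1771739, were spread over 21310 bp with 3, 4 and 5 SKIP-HA peaks. On chromosome 2, 5 regions at 1305252 to 1311500 covered 6249 bp with 5, 4 and 5 SKIP-HA peaks. The next run, by number and then by length, had 4 regions but spanned 188448 bp on chromosome 16, at 3323573 to 3512020. SKIP-HA replicates 1, 2 and 3 had 4, 3 and 4 peaks in all that length. SKIP-HA peaks were thus sparse along it, and PAF1-HA peaks were absent by the definition of a run.

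**Figure D4:**
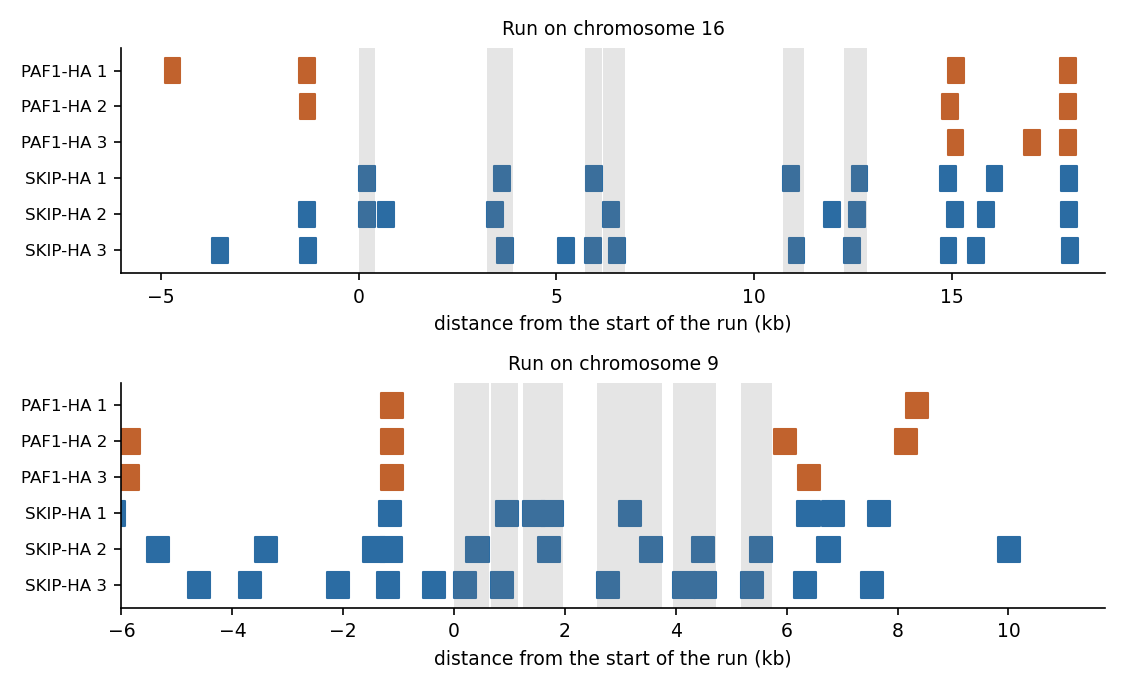
Peaks of the 6 libraries (rows; orange PAF1-HA, blue SKIP-HA) around the 2 runs with most SKIP-HA-only regions, by distance from the start of the run (horizontal axis, kb). Grey bands mark the 6 SKIP-HA-only regions of each run, in which the PAF1-HA rows are empty and SKIP-HA peaks of at least 2 libraries fall.

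Regions farthest from PAF1-HA lay in such sparse stretches. A distance of over 10 kb was found for 119 SKIP-HA-only regions (3.09%) on all 17 chromosomes and of over 20 kb for 20. From shared regions, the next PAF1-HA peak outside the region lay over 10 kb away for 2.66%. The longest such distance was 128433 bp. Long distances were thus not particular to SKIP-HA-only regions, and these shares were not tested against each other. The farthest SKIP-HA-only region, on chromosome 16 at 3430261 to 3430754, lay 81806 bp from any PAF1-HA peak. Its SKIP-HA peaks started at 3430287, 3430261 and 3430355 in replicates 1, 2 and 3. It belongs to the run of 188448 bp just described, and the whole stretch free of PAF1-HA peaks was 192236 bp long, with 6, 4 and 6 SKIP-HA peaks.

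On chromosome 5, a stretch of 153088 bp without PAF1-HA peaks (1650251 to 1803338) held 2 SKIP-HA-only regions and no region of a single SKIP-HA library. Each library had 3 peaks in the stretch. The region at 1729949 to 1730432, at 72906 bp from PAF1-HA, had SKIP-HA peaks starting at 1730033, 1730029 and 1729949. The region at 1715754 to 1716164, at 65503 bp, had them at 1715765, 1715762 and 1715754. Both were found in all 3 SKIP-HA libraries.

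The other 7 of the 10 farthest regions lay between 38882 and 69683 bp from PAF1-HA. By their start positions, chromosome 15 had 3 of them (3118560, 4669710 and 4670461) and chromosome 11 had 2 (2876562 and 2874842). The others were on chromosome 10 (3632132) and chromosome 3 (6978658). Of these, the chromosome 3 region had all 3 SKIP-HA libraries. It stood in the longest of the 7 stretches around the 10 regions, 251329 bp, where SKIP-HA replicates 1, 2 and 3 had 3, 2 and 2 peaks. SKIP-HA-only regions occurred at 0.398 to 3.72 per 100 kb in these stretches, against a mean of 3.41 per 100 kb window over all chromosomes. The value was above that mean in the chromosome 11 stretch only. How well reads can be placed in these stretches is not known from the lists.

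SKIP-HA-only regions were found on every chromosome, at 34.4 per Mb of the length spanned by peaks. Chromosome 5 had the highest density, with 166 regions or 45.8 per Mb, and chromosome 4 followed with 173 regions or 41.9 per Mb. Chromosome 15 had the lowest, with 118 regions or 20.3 per Mb, and chromosome 17 the next, with 200 regions or 28.9 per Mb. The other 13 chromosomes lay between 32.3 and 37.0 per Mb. Chromosome 15 was also lowest in all SKIP-HA regions (104 per Mb) and in PAF1-HA-only regions (5.15 per Mb). Across the 17 chromosomes the densities of SKIP-HA-only and of shared regions had a Pearson r of 0.679, which is a description of lists from the same libraries. This value includes chromosome 15, which stands apart at the low end, and r was not computed without it.

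As a share of a chromosome's SKIP-HA regions, the differences were smaller. SKIP-HA-only regions were 27.9% of SKIP-HA regions on chromosome 5 (95% Wilson interval 24.4 to 31.6) and 19.5% on chromosome 15 (16.5 to 22.8), against 23.5% overall. These 2 intervals are the only ones that leave out the overall value, but they belong to the highest and lowest of 17 chromosomes. The intervals cover counting error only, make no allowance for their number, and are not a test. The 921 regions with all 3 libraries gave the same ends of the order, with 12.1 per Mb on chromosome 5 and 4.98 per Mb on chromosome 15. Along the chromosomes the regions were even. With every chromosome divided into 10 equal parts, each part held between 9.60% and 10.5% of them. Their share of SKIP-HA regions was lowest in the last part (22.0%) and the first (22.3%) and highest in the seventh (24.9%).

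**Figure D5:**
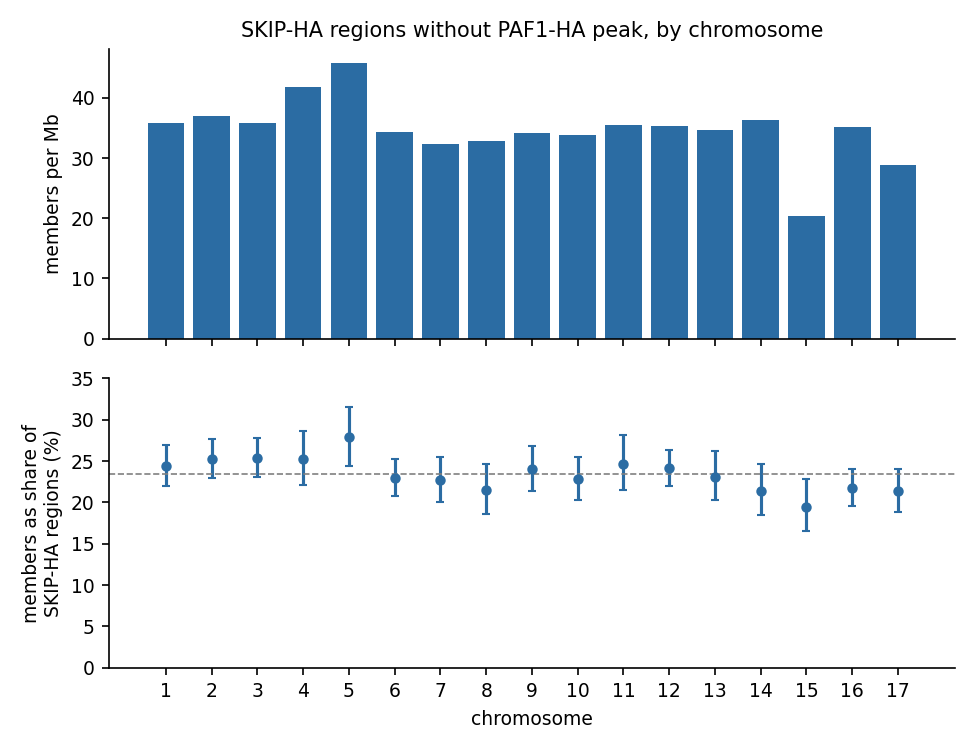
SKIP-HA-only regions per Mb (top) and as a percentage of the SKIP-HA regions of each chromosome (bottom; points with 95% Wilson intervals, dashed line: all chromosomes, 23.5%). Chromosome 5 is highest and chromosome 15 lowest in both panels.

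In windows of 100 kb, the number of SKIP-HA-only regions ranged from 0, in 71 of 1129 windows, to 15. The mean was 3.41 and the variance was 1.39 times the mean. Windows with 8 or more numbered 47 and held 431 of the regions. Over the 1129 windows, the number of SKIP-HA-only regions and that of shared regions had a Pearson r of 0.283, again as a description.

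The window with most, chromosome 16 at 5100001 to 5200000, had 15 SKIP-HA-only and 16 shared regions. PAF1-HA libraries had 20, 21 and 24 peaks in it and SKIP-HA libraries 36, 46 and 39. Chromosome 4 at 1700001 to 1800000 had 14 SKIP-HA-only and 9 shared regions, with 15, 15 and 16 PAF1-HA and 28, 24 and 28 SKIP-HA peaks. Chromosome 4 at 1100001 to 1200000 had 12 and 11. In these windows SKIP-HA-only regions were 48.4%, 60.9% and 52.2% of SKIP-HA regions, and PAF1-HA peaks were present in all 3. Windows with 11 each followed, starting at 6200001 on chromosome 9, 4400001 on chromosome 12 and 5500001 on chromosome 16. The chromosome 4 window at 1700001 holds the run of 5 regions over 21310 bp, and the chromosome 9 window holds the run of 6 over 5737 bp.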

How the data were processed

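Per the submitters' processing notes, the tools were Bowtie2 and HOMER (9 samples) and MACS3 (4 samples), without version, role or threshold. For build and control library, the answer is not given in the sources used here. The authors deposited 1 interval list for each of the 6 tagged libraries, with sequence, start and end, per the files themselves, and no score. A stricter cut on a score was therefore not possible.

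Peaks were merged in Python 3.11.15 with numpy 2.4.6 and scipy 1.17.1, and plotted with matplotlib 3.10.9. Distances count the bases between edges. Medians carry 95% order-statistic intervals. Intervals cover counting error only. The merging, distance and held-out steps were tested on simulated intervals. Groups followed the sample titles. A permutation test planned for the held-out comparison was run, but its p is not given because the choice of candidates gives its direction. The regions and tests were chosen with earlier results of these data known. Regions named were the 10 farthest from PAF1-HA, 5 by closest centres, 5 widest, 5 longest runs, the fullest 100 kb windows (5 by rule, 6 named because of a tie) and 3 on each side of the rule. The available gene table describes another or an unknown build and was not used.

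Alternatives left out each library, used replicates 1 and 2, required 3 SKIP-HA libraries, raised the overlap to 100 or 200 bp, barred PAF1-HA peaks within 200 bp or 1 kb, and changed the joining gap. A search of only the central 400 bp in the held-out comparison was added after the data were seen.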

Additional observations from a re-analysis of the deposited data

Results flagged for a closer look

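Outside the 17 chromosomes, which the rule leaves out, 5 merged regions had peaks of at least 2 SKIP-HA libraries and no PAF1-HA peak. They lie in sequences that the comparisons do not use. The 5 were 4.72% of the 106 merged regions there, below the 10.4% found on the chromosomes, and the difference was not tested. Of these, 3 lay on contigs and 2 on the plastome. The contig_19 region at 15273 to 15950 and the plastome region at 158466 to 159281 had all 3 SKIP-HA libraries. The others were on contig_23 at 63200 to 63631 and at 64846 to 65251, with replicates 1 and 2, and on the plastome at 94311 to 94772, with replicates 2 and 3.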

How the results depend on the processing

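The number of SKIP-HA-only regions ranged from 1790 to 5357 when 1 library was left out. It rose without a PAF1-HA library and fell without a SKIP-HA library, where both remaining ones were required. The same settings gave 18.4% to 32.4% of SKIP-HA regions, a median distance of 748 to 937 bp and 7.49% to 21.2% in clusters. PAF1-HA flank occupancy within 1 kb was 34.3% to 37.7%. The ratio of the highest to the lowest density of a chromosome was 1.94 to 2.80 (2.26 with all libraries). Replicates 1 and 2 alone gave 2556 regions, 26.5%, 936 bp, 9.43% in clusters and 37.4% flank occupancy. All 3 SKIP-HA libraries gave 921 regions, 13.0%, 1052 bp, 4.45% and 30.4%. An overlap of at least 100 bp gave 26.2%, 528 bp, 19.5% and 38.4%, and one of at least 200 bp gave 30.7%, 303 bp, 20.2% and 39.7%, since more peaks then stay separate. Barring PAF1-HA peaks within 200 bp gave 18.7%, 1185 bp and 26.2% flank occupancy, and within 1 kb 1664 regions, 10.1%, 3090 bp, 14.9% and, by construction, 0%. Joining gaps of 500 bp and 2 kb gave 11.8% and 24.8% in clusters, and distances from centre to centre had a median of 1256 bp. Chromosome 15 had the lowest density under each of these settings. Chromosome 5 had the highest except without SKIP-HA replicate 2 and at an overlap of 200 bp, where chromosome 4 did.

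The held-out difference of 0.285, whose direction the choice of candidates gives, was 0.273 to 0.299 without 1 replicate number in both groups. It was 0.281 and 0.259 with overlaps of at least 100 and 200 bp, and 0.293 over the central 400 bp, which takes out that comparison regions are wider. With the replicate number as a replicate block, the difference is 0.285 by construction, and no p is given for it. Same-numbered libraries did not deviate together over 1068 windows (correlations of -0.004, -0.032 and 0.002), so the numbers were not taken as pairs. This does not test whether both replicate 3 libraries share a batch. Peak lists without scores or read counts limit all values to presence or absence of a call.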
